A study of Mus musculus with 16 samples.

Results

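The G1 cyclins, their kinases and their inhibitors were taken as 10 genes: the D cyclins Ccnd2 and Ccnd3, the E cyclins Ccne1 and Ccne2, the kinases Cdk2, Cdk4 and Cdk6, and the kinase inhibitors Cdkn1a (p21), Cdkn1b (p27) and Cdkn2c (p18). They were chosen by name from the 17159 genes of the deposited table of depth-normalized read counts, and all 10 were among the 12469 genes with enough reads to be tested. The cells were CD8+ T cells of C57BL/6 mice. All of them, controls included, had been activated through CD3 and CD28 with antibodies for 2 days before 36 h in 1 of 4 media. Supplemented supernatant was the conditioned medium of B16F10 cells, a mouse melanoma line, with methionine added, and supernatant was the same conditioned medium with nothing added. Methionine-free fresh medium lacked this amino acid, and complete fresh medium held it. Each medium had 4 libraries, numbered 0 to 3, and the labels do not say whether these came from separate animals or cultures, so every p-value measures the spread between libraries, which may be technical. The 4 media allow the effect of methionine to be compared in fresh medium and in conditioned medium, and the conditioned medium to be set against fresh medium with and without added methionine. Methionine levels of the media were not among the values used here. Between supernatant and fresh media, a difference in methionine level and another effect of conditioning cannot be told apart.

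A cell in G1 commits to copying its DNA when cyclin-dependent kinases phosphorylate the retinoblastoma protein and release the E2F transcription factors. D cyclins act first, with CDK4 or CDK6, and E cyclins follow with CDK2. The p18 protein belongs to the INK4 family and binds CDK4 and CDK6, while p21 and p27 bind whole cyclin and kinase complexes and block CDK2. Resting T cells are known for high p27, which falls after stimulation, and activated lymphocytes use cyclins D2 and D3 with little or no cyclin D1.

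The tables hold no protein or cell cycle measurement, so all values below are RNA levels in bulk cultures. Recovered reads ran from 25.8 to 42.3 M per library. The CD8 T cell genes of the marker list were present (8 of 8 in the table, none at 0). Their summed level was 172770 to 185150 depth-normalized reads in supplemented supernatant, 135820 to 139190 in supernatant, 116320 to 118460 in methionine-free fresh medium and 159840 to 166720 in complete fresh medium, so it was lower without added methionine. Cd8a itself ran the other way, with means of 34700, 37100, 30600 and 24500 reads in the same order of media, whereas Cd4 stayed between 134 and 200 in every library. Of 7 melanoma genes, 6 were in the table, and their summed level was 91 to 144 reads in supplemented supernatant, 231 to 257 in supernatant, 257 to 282 in methionine-free fresh medium and 103 to 134 in complete fresh medium. Mlana, Dct and Tyrp1 had at most 7.14 reads in any library, but the other melanoma genes in the table were higher. Tyr had 27.3 to 84.7 reads and Mitf 16.9 to 68.4 over all libraries. Pmel averaged 27.9, 131, 176 and 29.1 reads in the same order of media. The summed level of the 4 genes listed for CD4 T cells (4 of 4 in the table, none at 0) moved with the media, with 11082 to 13387 reads in supplemented supernatant, 23313 to 25380 in supernatant, 20299 to 22568 in methionine-free fresh medium and 20677 to 22626 in complete fresh medium. Within this list, Foxp3 was lowest in complete fresh medium, with means of 156, 233, 196 and 50.8 reads in the same order of media. The 5 B cell genes (5 of 5 in the table) summed to 363 to 385 reads in supplemented supernatant, 731 to 858 in supernatant, 778 to 966 in methionine-free fresh medium and 503 to 542 in complete fresh medium. The 4 NK cell genes (4 of 4, Klra8 at 0 in supplemented supernatant and complete fresh medium) summed to 2353 to 2471, 1825 to 1979, 1205 to 1393 and 1092 to 1161 reads in that order of media, and 5 of 6 myeloid genes to 112 to 128, 121 to 140, 94.6 to 112 and 193 to 216 reads. The part of these markers in the results was not tested. In bulk samples, fewer cells of a type and less RNA per cell cannot be told apart.

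Per transcript length, as fragments scaled to transcript length and library size (FPKM), the 10 genes spanned a wide range of levels. In complete fresh medium, Cdk4 averaged 329 ± 26.8 FPKM and Ccnd3 averaged 267 ± 52.9 FPKM (SD, n = 4 each), ahead of Cdkn1a with 125 ± 16.9 FPKM. Cdkn1b, Cdk2, Ccnd2 and Ccne1 lay between 50.02 and 65.7 FPKM there, Cdkn2c at 28.9 FPKM, Cdk6 at 22.6 FPKM and Ccne2 at 9.97 FPKM. In methionine-free fresh medium Cdkn1a was the highest of the 10, with 380 ± 63.7 FPKM, ahead of Cdk4 with 217 ± 34.3 FPKM (SD, n = 4 each). Of the 3 inhibitors, Cdkn1a was the highest by this measure in both fresh media. Unless FPKM is named, levels are depth-normalized reads, which compare a gene between libraries but not genes with each other. The coefficient of variation within a medium ran from 0.742% to 8.79% over the 40 combinations of gene and medium, with a median of 3.22%.

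**Figure D1:**
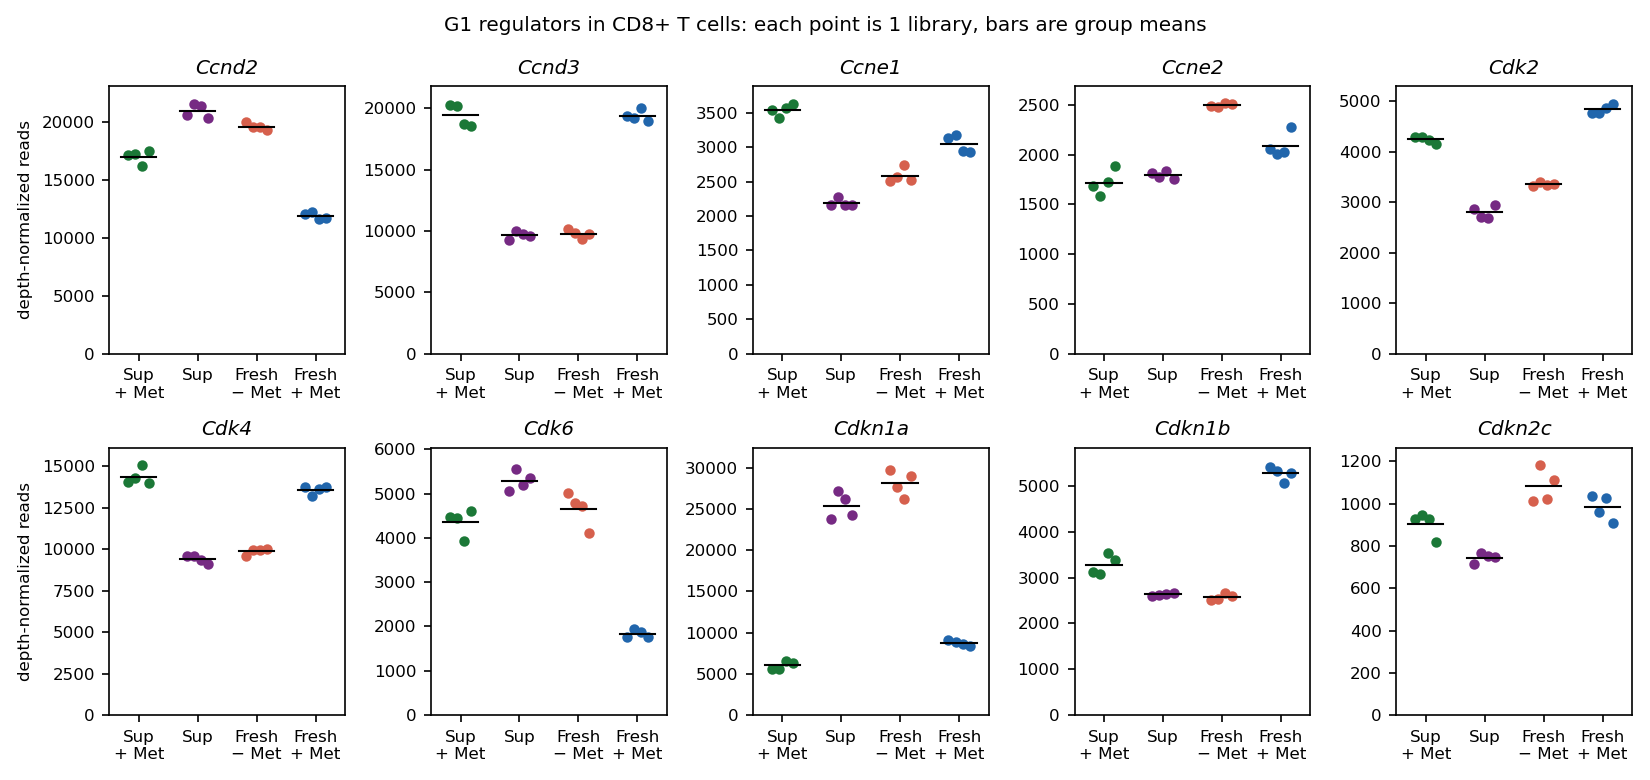
Depth-normalized reads (vertical axis, from 0) of the 10 genes in each library, with the medium on the horizontal axis and bars at the means of 4 libraries. Cdkn1a stands high in supernatant and methionine-free fresh medium (means 25372 and 28121), Ccnd3 low in both (9660 and 9760), and Cdk6 is low in complete fresh medium alone (1833).

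Cyclin D3 fell and cyclin D2 rose without methionine. Ccnd3 (chromosome 17, 47505051 to 47599691, plus strand, GRCm38) had 20236, 20224, 18744 and 18521 reads in supplemented supernatant and 9292, 10010, 9765 and 9572 reads in supernatant. It had 10121, 9827, 9356 and 9736 reads in methionine-free fresh medium and 19344, 19204, 20014 and 18936 reads in complete fresh medium. The libraries without added methionine, in either kind of medium, thus stood at about the same level and far below all of the others. Methionine removal from fresh medium lowered Ccnd3 1.99-fold (log2 fold change -0.99, SE 0.032, limma adjusted p = 4.57e-24), and supernatant was 2.01-fold lower than complete fresh medium (adjusted p = 3.1e-24). Adding methionine to supernatant raised Ccnd3 2.01-fold (log2 1.01, adjusted p = 4.7e-24). No difference was called between supplemented supernatant and complete fresh medium, where the 95% interval of the log2 difference was -0.06 to 0.07, nor between supernatant and methionine-free fresh medium, where it was -0.08 to 0.05. Bysl, a gene of ribosome assembly on the other strand, shares 361 of the 8775 exon bases of Ccnd3 and went the other way, with a log2 fold change of 1.75 on methionine removal. The strand used in counting is not given in the sources used here, so reads from the shared stretch cannot be assigned.

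Ccnd2 (chromosome 6, 127125162 to 127152193, minus strand) had 17149, 17232, 16230 and 17472 reads in supplemented supernatant and 20646, 21515, 21346 and 20362 in supernatant. It had 19979, 19581, 19583 and 19270 in methionine-free fresh medium and 12056, 12206, 11594 and 11709 in complete fresh medium. The 4 media did not overlap, and complete fresh medium was the lowest. Methionine removal raised Ccnd2 1.65-fold (log2 0.72, SE 0.028, adjusted p = 8.99e-22 in limma). Adding methionine to supernatant lowered Ccnd2 by less, with a log2 change of -0.30 (adjusted p = 1.58e-11), and supplemented supernatant remained 1.43-fold above complete fresh medium (adjusted p = 7.88e-17). Supernatant exceeded methionine-free fresh medium by 0.097 on the log2 scale (adjusted p = 0.0101), a call lost with quantile normalization (0.058, adjusted p = 0.156). The transcript 9330179D12Rik, which shares 368 of its bases with the exons of Ccnd2 on the other strand, had means of 47.9 to 171 reads, against at least 11594 reads of Ccnd2 in every library. The third D cyclin, Ccnd1, averaged 1.76 reads in supplemented supernatant, 6.18 in supernatant, 5.35 in methionine-free fresh medium and 2.52 in complete fresh medium, and was not tested.

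By FPKM, cyclin D3 made up 77.8% ± 4.90 of the summed D2 and D3 level in supplemented supernatant, 55.9% ± 10.3 in supernatant, 56.0% ± 6.97 in methionine-free fresh medium and 83% ± 3.99 in complete fresh medium (SD, n = 4 each). The lowest share in the media with methionine was 72.0%, and the highest in the media without added methionine was 67.4%. This ratio, and the other shares within pairs given below, were chosen after the values were seen and carry no test.

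**Figure D2:**
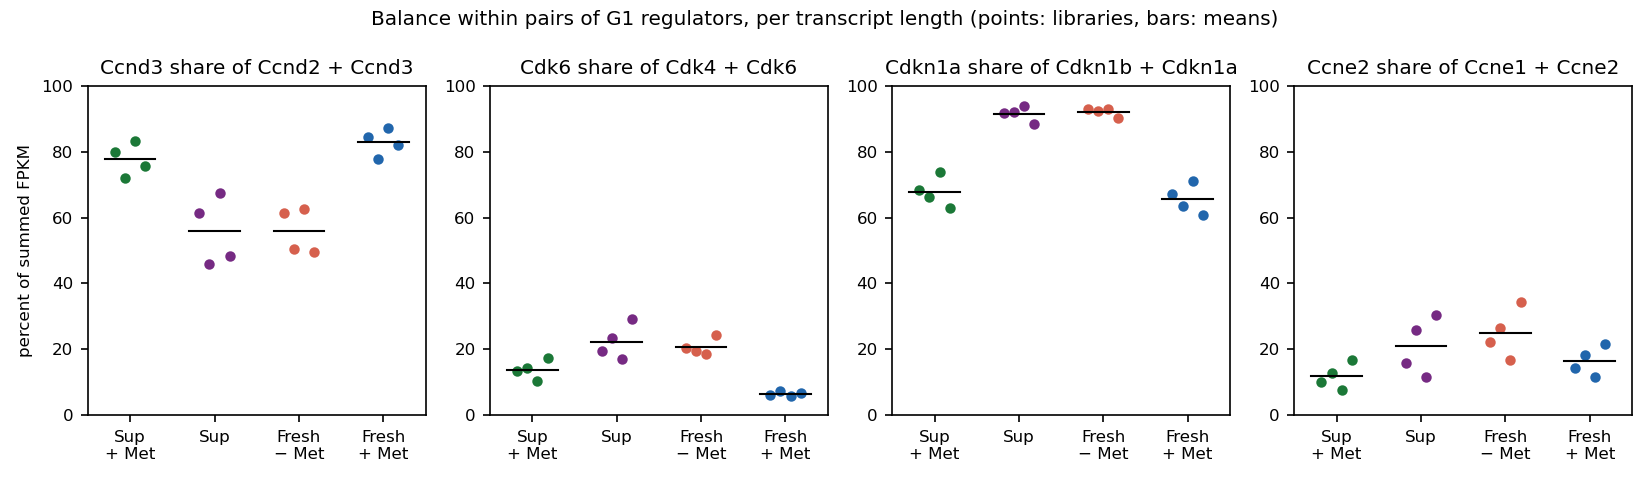
Share of the gene named first in each panel in the summed FPKM of its pair (vertical axis, percent) for each library, by medium, with bars at the means. The Ccnd3 share is lower (means 55.9% and 56.0%) and the Cdkn1a share higher (91.5% and 92.2%) in supernatant and methionine-free fresh medium, while the Cdk6 share is lowest in complete fresh medium (6.47%).

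The E cyclins differed from each other: in fresh medium without methionine Ccne1 fell and Ccne2 rose. Ccne1 (chromosome 7, 38097984 to 38107534, minus strand) averaged 3540 ± 88.3 reads in supplemented supernatant, 2191 ± 59.6 in supernatant, 2586 ± 108 in methionine-free fresh medium and 3050 ± 131 in complete fresh medium (SD, n = 4 each). The media did not overlap, with supplemented supernatant the highest and supernatant the lowest. Methionine removal from fresh medium lowered Ccne1 1.18-fold (log2 -0.24, SE 0.037, adjusted p = 4.29e-07), and methionine added to supernatant raised it 1.62-fold (log2 0.69, adjusted p = 4.38e-18, both limma). Supernatant was lower than methionine-free fresh medium by 0.24 on the log2 scale, with an interval of -0.31 to -0.16 (adjusted p = 5.25e-06).

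Ccne2 (chromosome 4, 11191351 to 11204779, plus strand) had 1681, 1583, 1726 and 1881 reads in supplemented supernatant and 1817, 1777, 1836 and 1759 in supernatant. It had 2485, 2478, 2515 and 2510 in methionine-free fresh medium and 2051, 2004, 2030 and 2279 in complete fresh medium. Methionine-free fresh medium was thus the highest and the supernatant media overlapped each other at the bottom. Methionine removal raised Ccne2 1.20-fold in fresh medium (log2 0.26, limma adjusted p = 2.39e-06), whereas supernatant was 1.16-fold lower than complete fresh medium (log2 -0.22, adjusted p = 3.39e-05). That lower value lost its call when libraries were scaled to total reads (-0.070, adjusted p = 0.129). Methionine added to supernatant gave a log2 difference of -0.068 with an interval of -0.16 to 0.02 (adjusted p = 0.148), which became a call under total-read scaling (-0.20, adjusted p = 0.000102) and without supplemented supernatant replicate 3 (-0.11, adjusted p = 0.016). Ints8 shares 609 of the 3495 exon bases of Ccne2 on the other strand and had log2 fold changes between -0.10 and 0.06 in these 3 comparisons.

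Among the kinases, Cdk4 and Cdk2 fell without methionine and Cdk6 rose. Cdk4 (chromosome 10, 127063534 to 127067920, plus strand) is the more abundant partner of the D cyclins here. Its level was 14337 ± 498 reads in supplemented supernatant, 9388 ± 225 in supernatant, 9877 ± 190 in methionine-free fresh medium and 13578 ± 244 in complete fresh medium (SD, n = 4 each), and the media did not overlap. Methionine removal lowered it 1.37-fold (log2 -0.46, SE 0.029, adjusted p = 2.87e-16), supernatant was 1.45-fold below complete fresh medium (adjusted p = 5.04e-18), and methionine added to supernatant raised it 1.53-fold (adjusted p = 1.53e-19, all limma). Supplemented supernatant exceeded complete fresh medium by 0.078 on the log2 scale (adjusted p = 0.0173), a call lost without complete fresh medium replicate 1 (0.065, adjusted p = 0.0628) or supplemented supernatant replicate 2 (0.054, adjusted p = 0.098). Supernatant against methionine-free fresh medium was not called (log2 -0.073, interval -0.13 to -0.02, limma adjusted p = 0.0549). That result changed, by a call or by its sign, in 11 of the 28 alternative settings. Tspan31, on the other strand, shares 641 of the 3249 exon bases of Cdk4, had means of 2668 to 3603 reads and also fell on methionine removal (log2 -0.43). Its log2 fold change was -0.28 for supernatant against complete fresh medium and -0.06 on methionine addition, where Cdk4 rose.

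Cdk2 (chromosome 10, 128697939 to 128705031, minus strand), the kinase of the E cyclins, averaged 4240 ± 71.1 reads in supplemented supernatant, 2800 ± 128 in supernatant, 3351 ± 32.5 in methionine-free fresh medium and 4835 ± 80.3 in complete fresh medium (SD, n = 4 each), with no overlap between media. It was 1.44-fold lower after methionine removal (log2 -0.53, adjusted p = 1.48e-16) and 1.73-fold lower in supernatant than in complete fresh medium (log2 -0.79, adjusted p = 2.22e-21). Methionine added to supernatant raised it 1.52-fold (adjusted p = 6.21e-18 in limma), to 1.14-fold below complete fresh medium (adjusted p = 4.92e-06). Pmel, which shares 34 of the 6219 exon bases of Cdk2 on the other strand and is itself a gene of the melanoma list, averaged at most 176 reads in any medium.

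Cdk6 (chromosome 5, 3341485 to 3531008, plus strand) had 4467, 4451, 3939 and 4600 reads in supplemented supernatant and 5049, 5564, 5203 and 5351 in supernatant. It had 5010, 4784, 4719 and 4122 reads in methionine-free fresh medium and 1766, 1942, 1869 and 1755 in complete fresh medium. Complete fresh medium stood alone at the bottom, and supplemented supernatant overlapped methionine-free fresh medium. Methionine removal raised Cdk6 2.54-fold (log2 1.34, SE 0.048, adjusted p = 6.04e-23), and supernatant was 2.89-fold above complete fresh medium (log2 1.53, adjusted p = 1.66e-24). In supernatant, added methionine lowered Cdk6 1.21-fold (log2 -0.28, adjusted p = 3.18e-06), and supplemented supernatant was still 2.38-fold above complete fresh medium (log2 1.25, adjusted p = 6.06e-21, all limma). The fall of Cdk6 on methionine addition was not called from the FPKM table without the replicate block. The Cdk6 share of the summed Cdk4 and Cdk6 FPKM was 13.7% ± 2.87 in supplemented supernatant, 22.3% ± 5.33 in supernatant, 20.7% ± 2.58 in methionine-free fresh medium and 6.47% ± 0.719 in complete fresh medium (SD, n = 4 each). Complete fresh medium reached at most 7.34%, and the other media began at 10.2%.

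The 250 bases before the start sites of Cdk4 and Cdk6 are shown because these kinases bind the same cyclins and moved in opposite directions. Among the 8 members with a promoter window, only these kinases had one that holds the E-box CACGTG, a sequence that MYC with MAX binds. The letters read the same on both strands and are in capitals; sequences are RefSeq's for GRCm38.p6, on the plus strand, at chr10:127063285-127063534 for Cdk4 and chr5:3343643-3343892 for Cdk6.
Cdk4: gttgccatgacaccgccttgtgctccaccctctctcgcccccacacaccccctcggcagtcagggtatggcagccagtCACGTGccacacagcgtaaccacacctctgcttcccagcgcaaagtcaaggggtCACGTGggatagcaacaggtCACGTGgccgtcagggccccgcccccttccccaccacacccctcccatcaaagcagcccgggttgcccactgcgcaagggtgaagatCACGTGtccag
Cdk6: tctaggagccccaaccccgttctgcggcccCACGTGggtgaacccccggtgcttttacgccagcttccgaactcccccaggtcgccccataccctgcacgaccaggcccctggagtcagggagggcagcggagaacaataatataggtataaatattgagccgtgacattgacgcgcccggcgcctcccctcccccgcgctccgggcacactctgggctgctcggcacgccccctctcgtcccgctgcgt
The Cdk4 window holds 4 E-boxes, the nearest 11 to 6 bases before the start site, and the Cdk6 window holds 1, at 220 to 215 bases before it. Of all 32851 windows of this length, 6.02% hold an E-box. Promoter windows were found for 8 of the 10 members, 11 windows in all. Ccnd2 and Ccne2 had no window, so their promoters were not searched for any of these letters. Of the other letters searched on both strands, the GC box GGGCGG was in 8 of the 11 windows against 32.7% of all, and the FOXO letters GTAAACA were in 1, of Ccnd3, against 3.17%. These shares were not matched for base composition. G and C made up 53.2% of the bases over all windows. They made up 42.8% in a window of Cdkn2c, 54.0% in a window of Cdkn1a and 59.6% to 77.2% in the other member windows. The E2F letters TTTCGCGC and TTTGGCGC, in 0.256% and 0.417% of all windows, and the STAT letters TTCNNNGAA, in 7.02%, were in none of the 11. These motifs were chosen with the expression values known, and a match describes the letters in the window and no more.

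**Figure D3:**
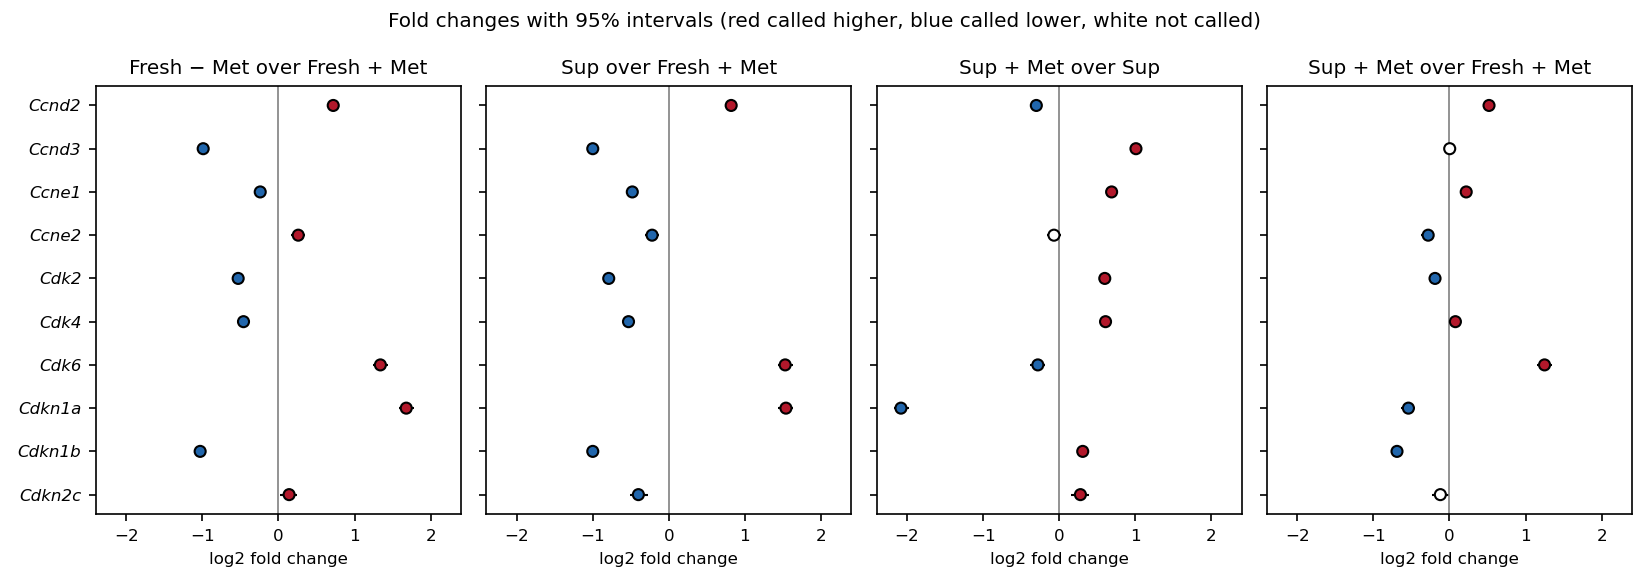
Log2 fold changes (horizontal axis) of the 10 genes in 4 comparisons, with 95% intervals, in red where called higher, blue where called lower and white where not called. Cdkn1a and Cdk6 lie farthest to the right in the first 2 panels (1.68 and 1.34, then 1.54 and 1.53), and Cdkn1a farthest to the left when methionine was added to supernatant (-2.08).

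The inhibitors of the CIP/KIP family moved in opposite directions with methionine, p21 rising and p27 falling without it, while both were lower in supplemented supernatant than in complete fresh medium. Cdkn1a (chromosome 17, 29090976 to 29100727, plus strand), which stops the cycle after DNA damage and other stresses and is a target of p53, had 5612, 5524, 6603 and 6314 reads in supplemented supernatant and 23765, 27174, 26242 and 24308 in supernatant. It had 29701, 27645, 26186 and 28951 reads in methionine-free fresh medium and 9093, 8918, 8599 and 8357 in complete fresh medium. Every library without added methionine was far above every library with it. Methionine removal raised Cdkn1a 3.21-fold (log2 1.68, SE 0.046, adjusted p = 3.92e-26), and supernatant was 2.90-fold above complete fresh medium (log2 1.54, adjusted p = 5.36e-25). Methionine added to supernatant lowered it 4.22-fold (log2 -2.08, adjusted p = 2.53e-28, all limma), the largest change of a member in any comparison here, and to a level 1.46-fold below complete fresh medium (log2 -0.54, adjusted p = 4.98e-12). Supernatant was slightly below methionine-free fresh medium (log2 -0.15, adjusted p = 0.0152), with overlapping libraries. That last call was lost without methionine-free replicate 0 (adjusted p = 0.0749) or 3 (0.0517), or without supernatant replicate 0 (0.0813) or 3 (0.0634).

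The window before the upstream start of Cdkn1a is shown because it was the only member window with a pair of p53 cores, searched as the letters CATG, any 6 bases and CATG again. The pattern reads the same on both strands, and its fixed letters are in capitals. It lies on the plus strand at chr17:29090729-29090978 (RefSeq, GRCm38.p6).
Cdkn1a: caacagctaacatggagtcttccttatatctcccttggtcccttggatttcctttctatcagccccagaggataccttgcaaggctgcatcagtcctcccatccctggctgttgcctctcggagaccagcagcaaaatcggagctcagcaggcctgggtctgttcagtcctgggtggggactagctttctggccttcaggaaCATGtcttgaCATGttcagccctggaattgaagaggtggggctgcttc
The letters stand 48 to 35 bases before the start site and occur in 0.490% of all windows of this length.

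Cdkn1b (chromosome 6, 134920401 to 134925513, plus strand) had 3122, 3082, 3531 and 3377 reads in supplemented supernatant and 2603, 2619, 2643 and 2661 in supernatant. It had 2506, 2524, 2663 and 2600 reads in methionine-free fresh medium and 5415, 5324, 5063 and 5288 in complete fresh medium. Complete fresh medium was well above the rest, and supernatant and methionine-free fresh medium overlapped at the bottom. Methionine removal lowered Cdkn1b 2.05-fold (log2 -1.03, SE 0.037, adjusted p = 6.52e-23). In supernatant, added methionine raised it 1.24-fold (log2 0.31, adjusted p = 2.54e-09), and supplemented supernatant stayed 1.61-fold below complete fresh medium (log2 -0.69, adjusted p = 5.05e-17, all limma). The rise of Cdkn1b on methionine addition was not called from the FPKM table without the replicate block. Supernatant and methionine-free fresh medium were not called different (log2 0.032, interval -0.04 to 0.11). Of the summed FPKM of the pair, Cdkn1a made up 67.9% ± 4.61 in supplemented supernatant, 91.5% ± 2.29 in supernatant, 92.2% ± 1.26 in methionine-free fresh medium and 65.6% ± 4.56 in complete fresh medium (SD, n = 4 each).

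Cdkn2c (chromosome 4, 109660876 to 109667189, minus strand) averaged 906 ± 57.8 reads in supplemented supernatant, 745 ± 21.4 in supernatant, 1082 ± 79.9 in methionine-free fresh medium and 983 ± 60.7 in complete fresh medium (SD, n = 4 each). Supernatant was 1.32-fold below complete fresh medium (log2 -0.40, SE 0.056, adjusted p = 9.24e-08) and 1.45-fold below methionine-free fresh medium (log2 -0.54, adjusted p = 4.76e-09), and methionine added to it raised Cdkn2c 1.21-fold (adjusted p = 3.45e-05, all limma). The rise on methionine removal in fresh medium was small (log2 0.14, adjusted p = 0.0232), and the libraries of the 2 fresh media overlapped. It was not called without methionine-free replicate 1 (0.095, adjusted p = 0.132) or 3 (0.13, 0.0596), nor without complete fresh medium replicate 1 (0.13, 0.0522) or 3 (0.10, 0.107). The edgeR (0.10, adjusted p = 0.0891) and DESeq2 (0.093, adjusted p = 0.14) fits did not call it either, but they too lacked methionine-free replicate 1. Between supplemented supernatant and complete fresh medium the log2 difference was -0.12 (adjusted p = 0.0653), and it was called without complete fresh medium replicate 3 (-0.16, adjusted p = 0.0196) or supplemented supernatant replicate 1 (-0.14, adjusted p = 0.045).

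Counted together, methionine removal from fresh medium raised 5 of the 10 genes (Cdk6, Cdkn1a, Ccnd2, Ccne2 and Cdkn2c) and lowered 5, where 85.6% of all genes tested were called, 43.3% higher and 42.3% lower. Supernatant against complete fresh medium gave 3 higher (Ccnd2, Cdk6 and Cdkn1a) and 7 lower, with 85.5% of all genes called, 43% higher and 42.5% lower. Methionine added to supernatant raised 6 and lowered 3, with 83.7% of all genes called, 41.8% in each direction. Supplemented supernatant against complete fresh medium gave 4 higher (Ccnd2, Cdk6, Ccne1 and Cdk4) and 4 lower, with 65% called and 32.5% in each direction. In these comparisons the members were called about as often as genes at large. Supernatant against methionine-free fresh medium called 7 of the 10, 2 higher (Ccnd2 and Cdk6) and 5 lower, where 26.8% of all genes were called, 14% higher and 12.9% lower. Called changes of at least 2-fold numbered 3, 4, 2, 1 and 0 in the same order of comparisons, against 27.7%, 27.6%, 22.3%, 4.84% and 0.385% of all genes. The groups did not overlap for 9, 10, 9, 8 and 7 of the 10 genes, against 81.3%, 80%, 78.1%, 56.1% and 28.7% of all genes. The median absolute log2 change of the members was 0.62 on methionine removal, against 0.57 over all genes, and 0.17 for supernatant against methionine-free fresh medium, against 0.09. Scaling to total reads shifted the median of all genes to 0.17, 0.15 and -0.14 in the first 3 comparisons and turned the counts called higher and lower into 6367 and 4371, 6209 and 4466, and 4355 and 6164, in place of 5397 and 5275, 5360 and 5304, and 5218 and 5215. No member changed sign under that scaling. From the FPKM table, whose libraries vary more, limma called 3 members higher and 5 lower on methionine removal, where 26.2% and 31.9% of its 11684 genes tested were called. It called 2 higher and 2 lower for supplemented supernatant against complete fresh medium (8.07% and 8.69% of all), and 0 higher and 1 lower for supernatant against methionine-free fresh medium (0.197% and 0.077%). With the replicate number as a block, the FPKM table gave 4 higher and 5 lower (36.9% and 42.3% of all), 3 and 5 (22.8% and 26.5%), and 0 and 4 (5.37% and 6.97%) in these comparisons. On methionine addition the FPKM table called 5 higher and 2 lower (29.3% and 22.3% of all), or 6 and 3 with the block (41.5% and 34.4%).

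The effect of lacking added methionine (without minus with) was set side by side in supernatant and in fresh medium, and the difference was tested as an interaction, which called 8 of the 10 genes where 52.6% of all genes were called. Cdk6 was the 1 called difference of at least 2-fold, against 4.82% of all genes. It had an effect of 0.28 in supernatant and 1.34 in fresh medium (difference -1.06, SE 0.068, limma adjusted p = 9.82e-15). Cdkn1b had -0.31 in supernatant and -1.03 in fresh medium (difference 0.72, adjusted p = 2.49e-13), and Ccnd2 had 0.30 and 0.72 (difference -0.42, adjusted p = 1.53e-10). For these 3 genes the effect kept its direction and was smaller in the supernatant media, and supplemented supernatant did not reach the level of complete fresh medium. The reverse held for Cdkn1a, with 2.08 in supernatant and 1.68 in fresh medium (difference 0.39, adjusted p = 6.13e-06), and for Ccne1, with -0.69 and -0.24 (difference -0.45, adjusted p = 6.43e-09). Cdkn2c had effects of opposite sign, -0.28 in supernatant and 0.14 in fresh medium (difference -0.42, adjusted p = 4.42e-05). The smaller differences of Ccne2 (-0.19, adjusted p = 0.0103) and Cdk4 (-0.15, adjusted p = 0.00206) were not called from the FPKM table with or without a replicate block. Ccnd3 (-0.018, interval -0.11 to 0.07) and Cdk2 (-0.07, interval -0.16 to 0.02) were not called. The 2 called higher and 6 called lower compare with 25% and 27.6% of all genes. FPKM values gave 0 called higher and 2 lower, Cdk6 and Ccne1 (3.37% and 3.05% of all genes), or 2 and 4 with the replicate block (16.5% and 17.2%). Without the block, the FPKM table thus lost the calls of Cdkn1b, Cdkn1a, Ccnd2 and Cdkn2c as well. With the block, these were kept.

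**Figure D4:**
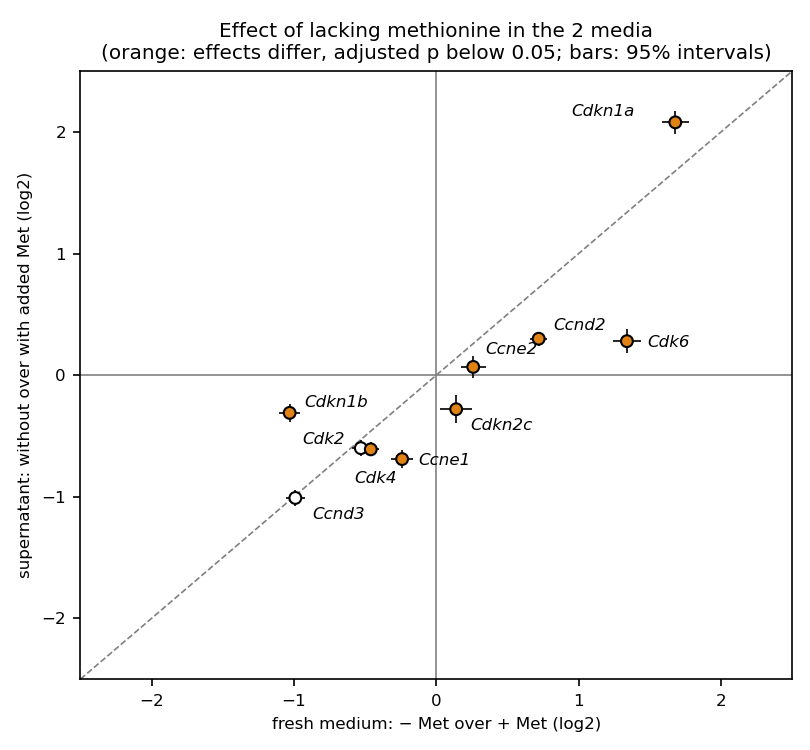
Log2 effect of lacking added methionine in supernatant (vertical axis) against that in fresh medium (horizontal axis) for the 10 genes, with bars for 95% intervals, a dashed line of equal effects, and orange where the effects differed by the interaction test. Ccnd3 and Cdk2 lie on or near the line, and Cdk6 (1.34 in fresh medium, 0.28 in supernatant) lies far below it.

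Over the 16 libraries, the genes followed a few shapes, given here as descriptions since libraries of a medium are close to each other and all members share libraries. Ccnd3 and Cdk4 had a Pearson r of 0.98, and Cdkn1a ran against both (-0.97 each). Cdk6 followed Ccnd2 (0.97), and Cdkn1b ran against Ccnd2 (-0.98). Ccne2 had its highest r among the members with Cdkn2c (0.65) and Cdkn1a (0.50), and its r with Ccne1 was -0.22. Among 9471 genes that averaged 100 reads or more, the profiles nearest to Ccnd2 were those of Polr1b (r = 0.9945) and Myc (0.9942), and those nearest to Ccnd3 were Sh2d3c and Mutyh (0.9968 each). Nearest to Ccne1 were Mcmbp (0.988) and Mta2 (0.979), and nearest to Ccne2 were Fignl1 (0.956) and E2f7 (0.941). Cdk2 was nearest to Aurka (0.9968) and Dck (0.9943), Cdk4 to Glod4 (0.9956) and Parp1 (0.995), and Cdk6 to Hemk1 (0.9907) and Lins (0.989). Cdkn1a was nearest to Fam32a (0.9968) and Nfkbia (0.9965), Cdkn1b to Tiparp (0.9943) and Tbl2 (0.9933), and Cdkn2c to Foxm1 (0.938) and Spc24 (0.907).

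Genes around the G1 machinery were read as 8 lists, described by counts and medians beside the median of all genes, which was 0.0092 on methionine removal, 0.0011 for supernatant against complete fresh medium and -0.0041 on methionine addition. Among all genes tested, 43.3% were called higher and 42.3% lower on methionine removal. In supernatant against complete fresh medium the shares were 43% and 42.5%, and on methionine addition 41.8% in each direction. Total-read scaling gave shares of 51.1% and 35.1%, 49.8% and 35.8%, and 34.9% and 49.4% in that order. List counts near these shares say little about a list. Of 11 other family members, 9 were tested, and 8 fell and 1 rose on methionine removal (median log2 -0.59). In supernatant against complete fresh medium the same counts held (median -0.92), and on methionine addition 8 rose and 1 fell (median 0.64). Total-read scaling gave 1 higher and 6 lower, 1 and 7, and 7 and 1 in that order. The FPKM table gave 0 and 5, 0 and 5, and 5 and 0, or 0 and 8, 0 and 8, and 8 and 1 with the replicate block. Of all genes in that table, 31.9% and 32.3% were called lower and 29.3% higher in these comparisons, or 42.3%, 43.5% and 41.5% with the block. Ccnb1, the mitotic cyclin, averaged 4506 ± 119 reads in methionine-free and 10820 ± 150 in complete fresh medium (log2 -1.26, limma adjusted p = 1.99e-28), and methionine added to supernatant raised it by 1.19. Ccna2, the cyclin of S phase, was 1.01 lower on the log2 scale in supernatant than in complete fresh medium (adjusted p = 1.32e-23), with 8678 ± 316 against 17491 ± 668 reads (SD, n = 4 each). Cdk8, a kinase of the Mediator complex, was the gene that rose on methionine removal (0.16) and in supernatant (0.20), although the FPKM table gave -0.010 for the second. Cdkn2d, the INK4 relative of Cdkn2c, was the gene that fell on methionine addition (-0.24, adjusted p = 2.5e-08). Cdkn2d was also called lower on methionine removal, and Cdk8 was also called higher on methionine addition.

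The retinoblastoma family and its DREAM partners (8 of 8 tested) were mixed, with 3 higher and 3 lower on methionine removal, 1 higher and 5 lower in supernatant against complete fresh medium, and 4 higher and 2 lower on methionine addition. Rbl1 (p107) fell and Rbl2 (p130) rose on methionine removal, with log2 changes of -0.64 and 0.38, and on methionine addition they took the opposite signs, 0.85 and -0.59. Rb1 was lower in supernatant than in complete fresh medium, with 3333 ± 155 against 4944 ± 295 reads (SD, n = 4 each; log2 -0.57, limma adjusted p = 3.26e-15). Of 9 genes that activate or restrain the kinases, all 9 rose on methionine addition (median 0.57; 7 with total-read scaling), and 6 fell and 2 rose on removal (median -0.36). In supernatant against complete fresh medium 1 was higher and 6 were lower (median -0.70). Ccnh, the cyclin of the CDK-activating kinase, averaged 998 ± 49.8 reads in methionine-free and 2266 ± 17.2 in complete fresh medium (log2 -1.18, adjusted p = 1.22e-23). The phosphatase gene Cdc25b fell by 1.02 while Cdc25a rose by 0.24. Pkmyt1, an inhibitory kinase of CDK1, rose by 0.76 on methionine addition.

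Ubiquitin ligase genes that turn over G1 cyclins and inhibitors (15 of 15 tested) gave 5 higher and 8 lower on methionine removal, 3 and 8 in supernatant against complete fresh medium, and 9 and 4 on methionine addition. Total-read scaling gave 7 and 6, 6 and 7, and 6 and 6, so the balance of this list depended on the scaling. Fzr1, which keeps the anaphase-promoting complex active in G1, fell by 0.90 on removal (limma adjusted p = 7.93e-21), and Cul1, the scaffold of the SCF ligase, rose by 0.57 (adjusted p = 2.32e-17). Fbxo4 rose by 0.36 on removal and fell by 0.60 on addition, and Cul4a fell by 0.88 and rose by 0.86. Fbxo31 rose by 1.30 on methionine addition, with 968 ± 53.7 reads in supplemented supernatant and 394 ± 38.1 in supernatant (SD, n = 4 each).

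Of 13 transcription factors and kinases that act upstream, 5 rose and 5 fell on methionine removal, 4 rose and 6 fell in supernatant against complete fresh medium, and 5 rose and 6 fell on addition. With total-read scaling 8 rose and 4 fell on removal, and 7 were higher and 5 lower in supernatant against complete fresh medium, so the balance of this list depended on the scaling too. Myc averaged 11629 ± 690 reads in supplemented supernatant, 17289 ± 547 in supernatant, 16102 ± 684 in methionine-free fresh medium and 6054 ± 316 in complete fresh medium (SD, n = 4 each), a rise of 1.41 on methionine removal (limma adjusted p = 2.34e-26). Mdm2, which marks p53 for destruction and is also on the p53 target list, rose by 1.73 on removal (adjusted p = 4.15e-29) and fell by 1.70 on addition (adjusted p = 1.54e-28). Foxo1, a driver of Cdkn1b in resting cells, fell by 0.37 and Foxo4 fell by 0.80 on removal, and Foxo3 fell by 1.04 on methionine addition.

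The p53 targets moved almost as a block, in the same direction as Cdkn1a. Of 20 genes, all tested, 19 rose and 1 fell on methionine removal (median log2 1.66), 19 were higher and 1 lower in supernatant against complete fresh medium (median 1.31), and 1 rose and 19 fell on methionine addition (median -1.50). These counts were the same with total-read scaling. Plk2 averaged 4744 ± 192 reads in methionine-free and 302 ± 13.4 in complete fresh medium (log2 3.97, limma adjusted p = 3.13e-34), and 304 ± 27.1 in supplemented supernatant against 3579 ± 230 in supernatant (log2 -3.55, SD, n = 4 each). Phlda3, an inhibitor of AKT, changed by 3.57 on removal and by -3.35 on addition. Sesn1, a sestrin that restrains mTORC1, was the exception, at -1.30 on removal and 0.40 on addition. Supplemented supernatant against complete fresh medium gave 5 higher, 9 lower and 6 not called (median -0.06), where 32.5% of all genes were called in each direction. Cdkn1a was called lower there. The FPKM table gave 3 higher and 4 lower in that comparison (8.07% and 8.69% of all genes), or 3 and 8 with the replicate block (22.8% and 26.5%). Supernatant against methionine-free fresh medium gave 1 higher and 15 lower (median -0.21), where 14% and 12.9% of all genes were called. The FPKM table called 0 of the 20 in that comparison, or 10 lower with the replicate block (median -0.28), where 6.97% of all genes were called lower.

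Targets of FOXO factors and genes of T cell quiescence (15 of 16 tested; Btg2 is also a p53 target) were split, with 7 higher and 8 lower on methionine removal, 6 and 7 in supernatant against complete fresh medium, and 5 and 9 on addition. Btg1, an antiproliferative gene, rose by 1.90 and Txnip, which restrains glucose uptake, by 1.41 on removal, while Pik3ip1, an inhibitor of PI3K, fell by 1.42 and Bcl6, a repressor, fell by 2.02 (limma adjusted p at most 1.13e-15). Supplemented supernatant was lower than complete fresh medium for 12 of the 15 and higher for 1 (median -0.38), a comparison in which Cdkn1b was lower too and 32.5% of all genes were called in each direction. The FPKM table called 5 of the 15 lower there (8.69% of all genes), or 11 with the replicate block (26.5%).

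S phase genes driven by E2F mostly moved in the direction of Cdk2 and Cdk4. Of 20, 2 rose and 15 fell on methionine removal (median -0.49), 19 were lower and 1 was not called in supernatant against complete fresh medium (median -0.73), and 19 rose and 1 fell on addition (median 0.63). Total-read scaling gave 5 higher and 15 lower, 1 higher and 19 lower, and 18 higher and 2 lower. Rrm1, a ribonucleotide reductase subunit, averaged 10159 ± 300 reads in methionine-free and 21710 ± 539 in complete fresh medium (SD, n = 4 each; log2 -1.10, limma adjusted p = 3.14e-26). Mcm3, of the replicative helicase, fell by 1.07, and Cdt1, which loads that helicase, rose by 1.27 on methionine addition. Tyms, thymidylate synthase, was the other way round, with 0.44 on removal and -0.19 on addition. Supernatant was lower than methionine-free fresh medium for 19 of the 20 (median -0.31), with 1 not called, where 12.9% of all genes were called lower. Ccne1, Ccne2 and Cdk2 were lower there too. In that comparison the FPKM table called 1 of the 20 lower (0.077% of all genes), or 15 with the replicate block (median -0.36, 6.97% of all genes). Mki67, a marker of cycling cells, averaged 46300 reads in supplemented supernatant, 49000 in supernatant, 61700 in methionine-free fresh medium and 64500 in complete fresh medium.

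**Figure D5:**
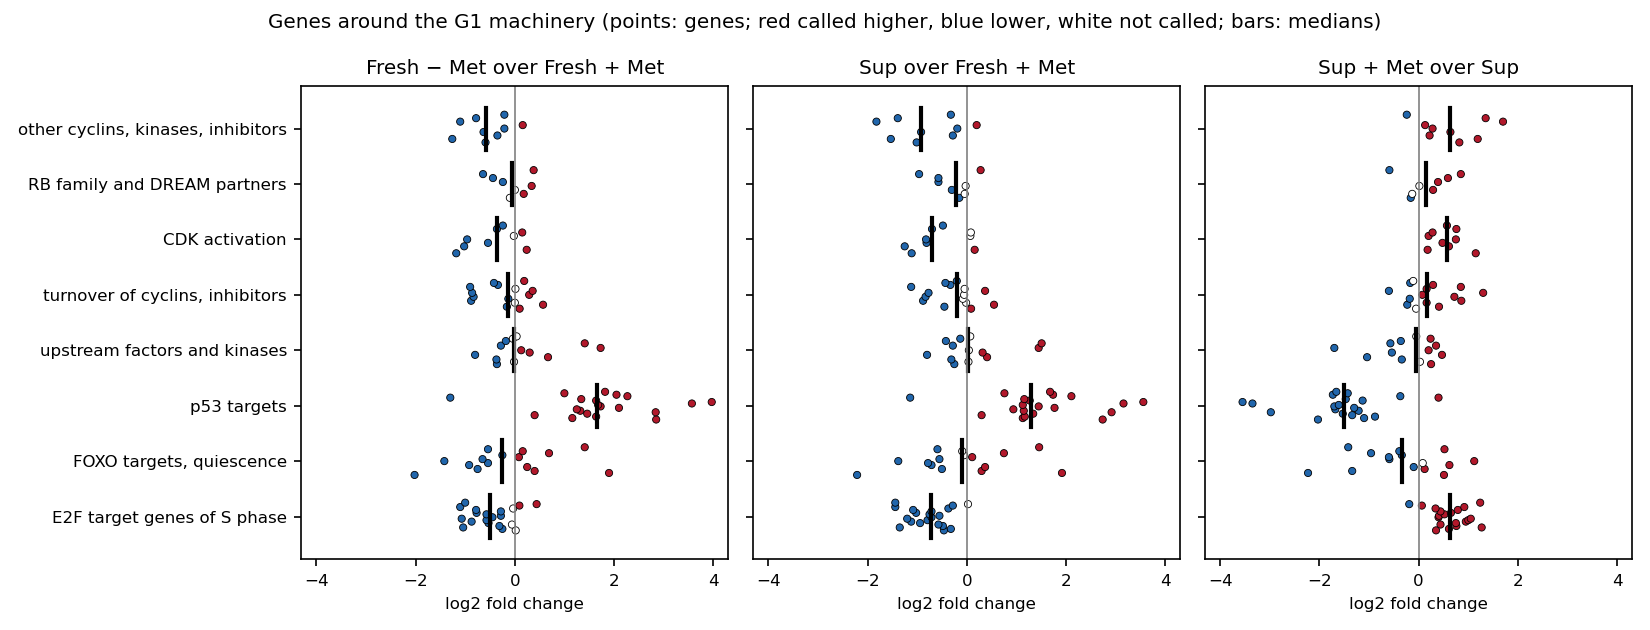
Log2 fold change of each tested gene (points) of the 8 lists in 3 comparisons, with bars at the list medians. The p53 targets lie to the right on methionine removal (median 1.66) and to the left on methionine addition (-1.50), and the E2F targets show the opposite (-0.49 and 0.63).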

How the data were processed

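RNA was sequenced from activated mouse CD8+ T cells in 4 media with 4 libraries each. The submitters' processing notes name the builds mm10 and GRCm38 and 5 tools, namely Cuffdiff 2.2.1, Cufflinks, Bowtie2 2.2.1, TopHat2 2.0.13 and FastQC 0.11.3. The counting tool, annotation and strand are not given in the sources used here. The first table that the authors deposited holds 1 signal per gene and library, named a depth-normalized count. Multiplying each column by its own factor gave back whole reads (100% of values lay within 0.01 of one), totalling 25.8 to 42.3 M per library. The second table holds FPKM, as deposited by the authors, for 23107 genes, with no depth.

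Values were analysed as log2(depth-normalized reads + 1), which understates folds of genes near 0. A mean of 10 or more across libraries was required, which left 12469 genes, tested in 1 linear model with 4 medium means (limma 3.58.1, R 4.3.3, mean-variance trend, two-sided). Calls required a p of less than 0.05 after Benjamini-Hochberg adjustment across the tested genes. Samples were grouped by their titles, and every table column matched 1 library. The 10 members, the 8 gene lists, the tests and the first set of alternatives were chosen with earlier results of these data known. Named genes were the members, per list and comparison the 2 largest rises and 2 largest falls among called genes averaging 100 reads or more, and the 2 nearest profiles per member, without predicted genes, small RNAs and pseudogenes. Values given beyond this rule (Ccnd1, Mki67, the markers and the overlapping genes) are descriptions.

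Replicate numbers are shared by the media but not stated to pair libraries. Alternatives were other pseudocounts, filters and scalings, the FPKM table as log2(FPKM + 0.1), a replicate block, each library left out in turn, and edgeR 4.0.16 and DESeq2 1.42.0 on the recovered reads of 15 libraries. These lack methionine-free fresh medium replicate 1, whose values also came out whole as above but did not pass a second check of the file for whole reads, so they change the library set as well as the tool. The limma script was tested on simulated data. Between pairs of libraries of a medium the mean chi-square per gene was 2.58 to 9.01, so no library was a copy of another. Coordinates come from a GRCm38 gene annotation, and promoter sequences from RefSeq (GRCm38.p6).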

Additional observations from a re-analysis of the deposited data

Results flagged for a closer look

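Of 40 combinations of gene and medium, 3 held a library that stood apart from the other 3 by Dixon's test at the 95% level, where chance would mark about 1 in 20. Ccne1 had 2280 reads in supernatant replicate 1, against 2158 to 2162 in the others. Cdk4 had 9594 reads in methionine-free fresh medium replicate 0, against 9943 to 10001. Cdkn2c had 820 reads in supplemented supernatant replicate 3, against 928 to 946.

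For 8 genes the log2 effect of lacking added methionine in supernatant differed from that in fresh medium by the interaction test in limma. The differences were -1.06 for Cdk6, 0.72 for Cdkn1b, -0.45 for Ccne1, -0.42 for Ccnd2, -0.42 for Cdkn2c, 0.39 for Cdkn1a, -0.19 for Ccne2 and -0.15 for Cdk4.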

How the results depend on the processing

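Each of the 10 genes was recomputed in the 6 comparisons under 28 alternative settings, and 32 of the 60 results kept their direction and their side of the threshold in every setting run. Of 1670 values, 1590 kept both, 44 lost a call, 16 gained one and 20 changed sign. The sign changes were of results that were not called. For supplemented supernatant against complete fresh medium, Ccnd3 gave -0.0022 in the FPKM table with and without the block, -0.00026 by DESeq2, and ranged over the libraries left out from -0.017 to 0.026. For supernatant against methionine-free fresh medium, the FPKM table gave 0.063 for Ccnd3, 0.022 for Cdk4 and -0.065 for Cdkn1b with and without the block, and Ccnd3 ranged from -0.035 to 0.0037 over the libraries left out. Its interaction was 0.066 in the FPKM table with and without the block and ranged from -0.041 to 0.0018 over the libraries left out.

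Genes called in the FPKM table numbered 6786 on methionine removal, 6717 for supernatant against complete fresh medium, 6027 on methionine addition, 1958 for supplemented supernatant against complete fresh medium, 32 for supernatant against methionine-free fresh medium and 750 for the interaction, against 10672, 10664, 10433, 8106, 3344 and 6557 from depth-normalized reads. Members called higher in that table were 3 on removal, 2 for supplemented supernatant against complete fresh medium (2 lower), 0 for supernatant against methionine-free fresh medium (1 lower) and 0 for the interaction (2 lower). With the replicate block, the FPKM table called 1441 genes for supernatant against methionine-free fresh medium, with 0 members higher, and 3942 for the interaction. Quantile normalization called 1 member higher for supernatant against methionine-free fresh medium. In the FPKM table Cdk8 gave -0.010 for supernatant against complete fresh medium with and without the block. The cause of these changes was not tested. Residuals of libraries with the same number correlated at -0.0668 to 0.068 over 24 pairs in the depth-normalized table and at 0.0926 to 0.479 in the FPKM table, and the numbers were not taken to pair libraries. The replicate block on depth-normalized values called 10655, 10654, 10416, 8061, 3291 and 6521 genes and changed no member's call.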
